A study of Homo sapiens with 12 samples.

Results

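The genes described here are the protein-coding genes at the ends of the human autosomes. The rule that defines them uses position and gene type alone. It takes every autosomal gene with the type protein_coding in GENCODE v44 whose start or end lies within 2 Mb of an end of its GRCh38 chromosome. The rule gave 1252 of 19111 autosomal protein-coding genes, called members below. This set was chosen with earlier results of these data known. They were measured by RNA-seq in MiaPaca2, a human pancreatic ductal adenocarcinoma cell line, in 4 groups of 3 libraries after 24 h. Con cells received the vehicle DMSO. CPT cells received 1 µM calcipotriol, a Vitamin D analogue. GTA+5-Aza cells received 2 mM GTA, a precursor of acetate, and 1 µM 5-Aza, an inhibitor of DNA methyltransferases, a pair called epigenetic priming. CPT+GTA+5-Aza cells received all 3 agents. All libraries thus come from 1 cell line, and the effects of GTA and of 5-Aza on a member cannot be told apart because no group received either alone.

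Chromosome ends carry the telomere, a repeat array shortened at each division and extended by telomerase, and next to it stretches that are rich in genes, in GC and in CpG dinucleotides. CpG is the site of DNA methylation in mammalian cells, which is copied at each division by the methyltransferases that 5-Aza traps, while acetylation of histone tails opens chromatin for transcription. Genes near telomeres can be held silent by the telomere itself, and many subtelomeric families, such as olfactory receptors, are duplicated between ends.

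The promoters of 6 members are shown because they head the upregulated and downregulated members of GTA+5-Aza against Con and let the CpG density at a chromosome end be read directly. They are the first 3 upregulated and first 3 downregulated members by p-value that have an entry in the promoter table used here, which is from RefSeq on GRCh38.p14 and runs from 250 bases before to 50 bases after each gene start. Capitals mark every CpG and all other bases are in lower case. The GFPT2 window is chr5:180353287-180353586 on the minus strand, the SPATA2L window chr16:89701656-89701955 on the minus strand and the MELTF window chr3:197029768-197030067 on the minus strand, all of upregulated members. The MAD1L1 window is chr7:2232896-2233195 on the minus strand, the EHMT1 window chr9:137618755-137619054 on the plus strand and the DIP2C window chr10:689619-689918 on the minus strand, all of downregulated members.
GFPT2: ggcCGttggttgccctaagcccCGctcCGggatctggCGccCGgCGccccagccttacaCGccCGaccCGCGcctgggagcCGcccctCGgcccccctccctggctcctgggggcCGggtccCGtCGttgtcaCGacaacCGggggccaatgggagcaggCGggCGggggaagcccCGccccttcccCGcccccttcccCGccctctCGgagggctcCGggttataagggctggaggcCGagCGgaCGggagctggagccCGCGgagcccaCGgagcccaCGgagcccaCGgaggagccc
SPATA2L: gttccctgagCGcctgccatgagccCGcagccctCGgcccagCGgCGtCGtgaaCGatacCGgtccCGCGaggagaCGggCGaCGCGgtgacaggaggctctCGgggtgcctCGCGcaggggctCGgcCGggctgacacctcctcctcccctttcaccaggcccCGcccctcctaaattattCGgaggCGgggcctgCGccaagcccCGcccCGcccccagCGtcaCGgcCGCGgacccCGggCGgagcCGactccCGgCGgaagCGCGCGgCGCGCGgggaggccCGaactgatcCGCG
MELTF: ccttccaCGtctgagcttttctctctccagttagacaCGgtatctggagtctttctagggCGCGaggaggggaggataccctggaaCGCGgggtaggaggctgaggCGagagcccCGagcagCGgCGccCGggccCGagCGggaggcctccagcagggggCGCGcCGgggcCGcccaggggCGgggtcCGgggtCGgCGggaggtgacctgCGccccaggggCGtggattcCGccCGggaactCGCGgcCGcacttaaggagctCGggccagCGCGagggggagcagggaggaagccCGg
MAD1L1: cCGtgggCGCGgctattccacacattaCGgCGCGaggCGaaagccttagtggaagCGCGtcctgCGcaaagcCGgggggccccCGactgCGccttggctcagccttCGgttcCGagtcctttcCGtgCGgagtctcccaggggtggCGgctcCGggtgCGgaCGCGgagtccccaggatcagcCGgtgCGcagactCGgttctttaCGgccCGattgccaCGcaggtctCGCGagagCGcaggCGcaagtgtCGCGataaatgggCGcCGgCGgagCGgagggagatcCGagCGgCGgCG
EHMT1: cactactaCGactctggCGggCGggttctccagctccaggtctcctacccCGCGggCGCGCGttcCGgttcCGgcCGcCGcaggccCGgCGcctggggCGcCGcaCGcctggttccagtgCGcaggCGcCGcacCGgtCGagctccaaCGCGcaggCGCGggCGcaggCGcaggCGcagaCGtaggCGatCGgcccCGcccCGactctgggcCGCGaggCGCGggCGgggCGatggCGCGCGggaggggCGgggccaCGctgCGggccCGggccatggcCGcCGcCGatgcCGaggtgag
DIP2C: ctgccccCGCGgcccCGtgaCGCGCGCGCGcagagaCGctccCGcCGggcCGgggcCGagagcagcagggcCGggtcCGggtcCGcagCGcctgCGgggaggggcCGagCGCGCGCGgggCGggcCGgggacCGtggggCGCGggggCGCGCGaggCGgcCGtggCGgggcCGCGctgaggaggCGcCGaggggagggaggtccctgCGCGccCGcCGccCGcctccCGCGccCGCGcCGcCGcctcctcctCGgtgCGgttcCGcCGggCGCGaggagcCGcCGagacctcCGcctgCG
The 3 upregulated promoters held 32, 43 and 32 CpG and the 3 downregulated ones 42, 51 and 59, so that CpG-rich windows stood on both sides. Promoter windows were found for 695 of the 910 members that could be tested, and their median was 36 CpG, against 26 for 9027 other tested autosomal protein-coding genes and 14 over all 33725 autosomal windows of the table. Members upregulated in both priming comparisons had a median of 32 CpG (43 windows), those downregulated in both 36.5 (56 windows) and those called in neither 35 (510 windows). The GC box GGGCGG, searched on both strands, lay in 80% of the member windows, 70.6% of the windows of other tested genes and 45% of all windows. Among the 6 windows shown it was present in each except that of MAD1L1. The telomere repeat unit TTAGGG, searched on both strands, was in 6.62% of member windows and 9.11% of all windows.

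Of the 1252 members, 1220 were listed in the count tables and 32 were not. A further 158 had 0 counts in every library and 152 had counts too low to pass the filter on low counts, which left 910 tested members, or 72.7%, against 61.9% of the other autosomal protein-coding genes. The members lay at 39 of the 44 autosomal ends, the 5 others being the short arms of chromosomes 13, 14, 15, 21 and 22. The families that fill some ends with genes were nearly silent: none of 57 olfactory receptors, 6 beta-defensins and 6 keratin-associated protein genes was tested, and of 62 members at 1q only 8 were. In contrast, 75 of 81 ZNF zinc finger genes were tested. The tested members had a median exonic GC content of 60.1% and a median gene span, from start to end with introns, of 18.2 kb, against 47.7% and 33.6 kb for the 11057 other tested autosomal protein-coding genes.

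Libraries held between 16162490 and 21224665 counts, of which members took between 6.67% and 7.41%. KRT8, KRT18 and VIM were abundant in all libraries, while the epithelial genes EPCAM and CDH1 were at or near 0. Of 13 markers of acinar, stromal, leukocyte and endothelial cells, only COL3A1 was above 3 CPM, the level used here (counts scaled to a common library size), at 84.8 to 125 CPM, and 7 of the 13 were at 0 in every library. The summed CPM of the 13 markers was 89.9 to 101 in Con, 85.0 to 92.9 in CPT, 116 to 126 in GTA+5-Aza and 101 to 109 in CPT+GTA+5-Aza, so that it moved with priming, and its part in the results was not tested. In addition, genes of high GC content shifted between libraries. Of the genes that are not members, those in the top GC class (59.4% to 76.0%) deviated in median from their 12-library mean by -0.219 to 0.053 in the 6 unprimed libraries and by 0.034 to 0.235 in the 6 primed ones on the log2 CPM scale, with Con replicate 2 and CPT replicate 2 above the other unprimed libraries. Since members are GC-rich, the medians over all members, span classes, distances, chromosome ends and roles are given below also with the GC trend of each library removed.

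To see how genes at chromosome ends responded to epigenetic priming, GTA+5-Aza was compared with Con. Members moved in both directions in nearly equal number. Under the quasi-likelihood test of edgeR, with p-values adjusted by Benjamini-Hochberg across 17123 genes, 98 members were upregulated at an adjusted p under 0.05, where 9.95% of all tested genes were, and 88 were downregulated, where 7.53% of all tested genes were. These are 10.8% and 9.67% of the tested members, against 12.3% and 9.49% of the other autosomal protein-coding genes. By the study's own rule (fold change above 1.5 and unadjusted P under 0.05), 48 members were upregulated (all tested genes 6.82%) and 23 were downregulated (all tested genes 1.62%), which are 5.27% and 2.53% of members. The median log2 fold change of members was 0.024, against 0.009 for the other autosomal protein-coding genes and 0.007 for all tested genes. The split leaned on scaling: it was 117 upregulated and 69 downregulated with scaling by library size alone, and 51 and 216 with the GC trend removed. Shares of all tested genes called under these settings are not given here. These counts therefore show only how the member split depends on scaling. The member median was 0.064 with library size alone, against 0.049 for the other genes. With the GC trend removed the member median was -0.097 and that of the other genes 0.002. As RNA was taken from bulk cultures, fewer expressing cells and less RNA per cell cannot be told apart in any of these values.

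The comparison of CPT+GTA+5-Aza with CPT addresses the same priming in the presence of calcipotriol, and it shares no library with the first comparison. Here 87 members were upregulated (all tested genes 9.57%) and 94 were downregulated (all tested genes 7.39%) by the same edgeR test, with a member median of 0.008 against 0.004 for the other autosomal protein-coding genes. By the study's rule 54 rose (all tested genes 6.93%) and 24 fell (all tested genes 1.74%). The split was 114 and 72 with scaling by library size alone and 58 and 221 with the GC trend removed, again without shares of all tested genes. The member medians under these settings were 0.048 and -0.093, against 0.044 and -0.002 for the other autosomal protein-coding genes. In both comparisons 61 members were upregulated and 66 downregulated, and none was called in opposite directions. These 127 members are 68.3% of the 186 called in either direction without CPT (all tested genes 17.5%) and 70.2% of the 181 with CPT (all tested genes 17.0%), against 68.5% and 70.5% for the other autosomal protein-coding genes. The interaction of CPT and priming was called for 0 members by edgeR and for 0 by DESeq2, and for 0.00% of all tested genes by edgeR. At an unadjusted p under 0.05 in edgeR there were 30 of 910 members and 451 of 17123 tested genes.

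GFPT2, which encodes a glutamine-fructose-6-phosphate transaminase that opens the hexosamine pathway, led the upregulated members. It lies 1185 kb from the end of 5q at chr5:180300698-180353336. Its level was 11.9, 12.2 and 10.7 CPM in Con, 10.1, 12.5 and 11.6 CPM in CPT, 26.2, 24.4 and 22.9 CPM in GTA+5-Aza, and 24.7, 23.6 and 19.8 CPM in CPT+GTA+5-Aza. All 6 primed libraries were above all 6 unprimed libraries. The log2 fold change was 1.08 ± 0.13 (SE, n = 3 per group, edgeR adjusted p = 1.27e-06) without CPT and 1.00 ± 0.13 (edgeR adjusted p = 4.42e-06) with CPT.

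MELTF encodes melanotransferrin, an iron-binding protein anchored in the cell membrane, and lies 1266 kb from the end of 3q at chr3:196980590-197029835. It stood at 110, 115 and 114 CPM in Con, 109, 133 and 90.0 CPM in CPT, 170, 169 and 183 CPM in GTA+5-Aza, and 174, 178 and 174 CPM in CPT+GTA+5-Aza. CPT replicate 2 was the highest unprimed library but stayed below every primed one. The log2 fold changes were 0.62 ± 0.09 (SE, n = 3 per group, edgeR adjusted p = 1.29e-05) and 0.66 ± 0.09 (edgeR adjusted p = 5.07e-06). SPATA2L, a relative of the adaptor SPATA2, lies 637 kb from the end of 16q and rose from 9.99, 11.2 and 8.46 CPM in Con to 22.5, 17.2 and 22 CPM in GTA+5-Aza, a log2 fold change of 1.05 ± 0.14 (edgeR adjusted p = 6.35e-06). It stood at 12.6, 12.6 and 12.8 CPM in CPT against 19.7, 21.1 and 24.2 CPM in CPT+GTA+5-Aza, again without overlap.

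CACNA1H, a T-type calcium channel subunit 1153 kb from the end of 16p, had 0 counts in all 6 unprimed libraries. It stood at 1.12, 1.15 and 2.2 CPM in GTA+5-Aza and at 1.64, 1.19 and 0.980 CPM in CPT+GTA+5-Aza. Against the 3 counts per library that a count of 0 allows, it was at least 10.2-fold higher without CPT and at least 8.13-fold higher with CPT. It passed the filter on low counts through the primed libraries alone. Its test could thus only come out higher and is no independent support for a rise. B4GALNT3, a glycosyltransferase 460 kb from the end of 12p, was one of the few upregulated members over 100 kb long. It rose from 5.26, 5.05 and 4.52 CPM in Con to 10.4, 10.5 and 10.2 CPM in GTA+5-Aza, and from 3.68, 3.25 and 4.58 CPM in CPT to 10.2, 13.2 and 10.6 CPM in CPT+GTA+5-Aza. The log2 fold changes were 1.07 ± 0.18 (edgeR adjusted p = 0.000108) and 1.56 ± 0.18 (edgeR adjusted p = 9.56e-07). The other leading upregulated members were GAMT, an enzyme of creatine synthesis, the kinase PIM3, the synaptic adhesion protein ELFN1, the neurotensin receptor NTSR1 and the secreted factor EGFL7. Their log2 fold changes were between 0.59 (PIM3 and EGFL7) and 1.01 (GAMT) without CPT and between 0.33 (ELFN1) and 0.84 (NTSR1) with CPT, with edgeR adjusted p-values up to 0.0427. With the GC trend removed ELFN1 stood at 0.47 and 0.14, and PIM3 at 0.38 and 0.35.

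MAD1L1, a component of the mitotic spindle checkpoint, had the smallest p among downregulated members. It spans 417.5 kb at chr7:1815793-2233243, 1816 kb from the end of 7p. Its level was 60.4, 67.7 and 65.5 CPM in Con, 58.8, 71.6 and 65.5 CPM in CPT, 33.9, 31.1 and 38.6 CPM in GTA+5-Aza, and 32, 32.6 and 33.6 CPM in CPT+GTA+5-Aza. No primed library reached an unprimed one. The log2 fold change was -0.90 ± 0.09 (SE, n = 3 per group, edgeR adjusted p = 1.89e-07) without CPT and -1.0 ± 0.09 (edgeR adjusted p = 4.23e-08) with CPT.

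INPP5A, an inositol polyphosphate phosphatase that spans 245.7 kb at 10q, stood at 40.4, 37.3 and 37.7 CPM in Con and 39.5, 43.4 and 40.9 CPM in CPT. It was at 19.2, 19.7 and 22.5 CPM in GTA+5-Aza and 16.7, 16.8 and 16.5 CPM in CPT+GTA+5-Aza. The groups did not overlap, and the log2 fold changes were -0.91 ± 0.10 (edgeR adjusted p = 4.66e-07) and -1.30 ± 0.10 (edgeR adjusted p = 1.42e-09). DIP2C, a large protein of the disco-interacting family, spans 415.5 kb at chr10:274201-689668 and lies 274 kb from the end of 10p. It fell from 32.4, 36.0 and 31.3 CPM in Con to 20, 16.0 and 16.7 CPM in GTA+5-Aza and from 32.6, 33.9 and 29.1 CPM in CPT to 15.6, 15.7 and 14.1 CPM in CPT+GTA+5-Aza. Its log2 fold changes were -0.92 ± 0.11 (edgeR adjusted p = 2.42e-06) and -1.07 ± 0.12 (edgeR adjusted p = 3.53e-07).

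EHMT1, a histone lysine methyltransferase, spans 251.0 kb and is the outermost tested member at 9q, 525 kb from the end. It stood at 104, 104 and 99.4 CPM in Con and 106, 99.7 and 103 CPM in CPT, against 70.8, 59.3 and 67.6 CPM in GTA+5-Aza and 61.5, 62.5 and 55.2 CPM in CPT+GTA+5-Aza. The 6 unprimed libraries lay close together and all above the primed ones. The log2 fold changes were -0.63 ± 0.08 (edgeR adjusted p = 1.50e-06) and -0.79 ± 0.08 (edgeR adjusted p = 6.90e-08). PRKAR1B, a regulatory subunit of protein kinase A that spans 178.5 kb at 7p, changed by -0.76 ± 0.10 (edgeR adjusted p = 4.77e-06) and -0.83 ± 0.10 (edgeR adjusted p = 1.57e-06). The proprotein convertase PCSK6, the corepressor CBFA2T3 and PTPRN2, a phosphatase-like protein of secretory granules whose span of 1048.8 kb is the longest among tested members, also fell in both comparisons.

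TERT, the catalytic subunit of telomerase, is itself a member, 1253 kb from the end of 5p at chr5:1253147-1295068. Its level was low, at 3.16, 2.67 and 1.99 CPM in Con and 2.69, 2.66 and 2.84 CPM in CPT, and lower in all primed libraries, at 1.39, 0.301 and 0.395 CPM in GTA+5-Aza and 1.00, 0.341 and 0.429 CPM in CPT+GTA+5-Aza. Replicate 1 was the highest library in both primed groups but stayed below the unprimed ones. The log2 fold changes were -1.90 ± 0.47 (SE, n = 3 per group, edgeR adjusted p = 0.00591) and -2.18 ± 0.49 (edgeR adjusted p = 0.00241). The zinc finger gene ZFP41 at 8q, the shortest of the 10 leading downregulated members, fell without CPT (-0.65 ± 0.16, edgeR adjusted p = 0.00552), while with CPT its value was -0.22 ± 0.16 (edgeR adjusted p = 0.398).

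**Figure D1:**
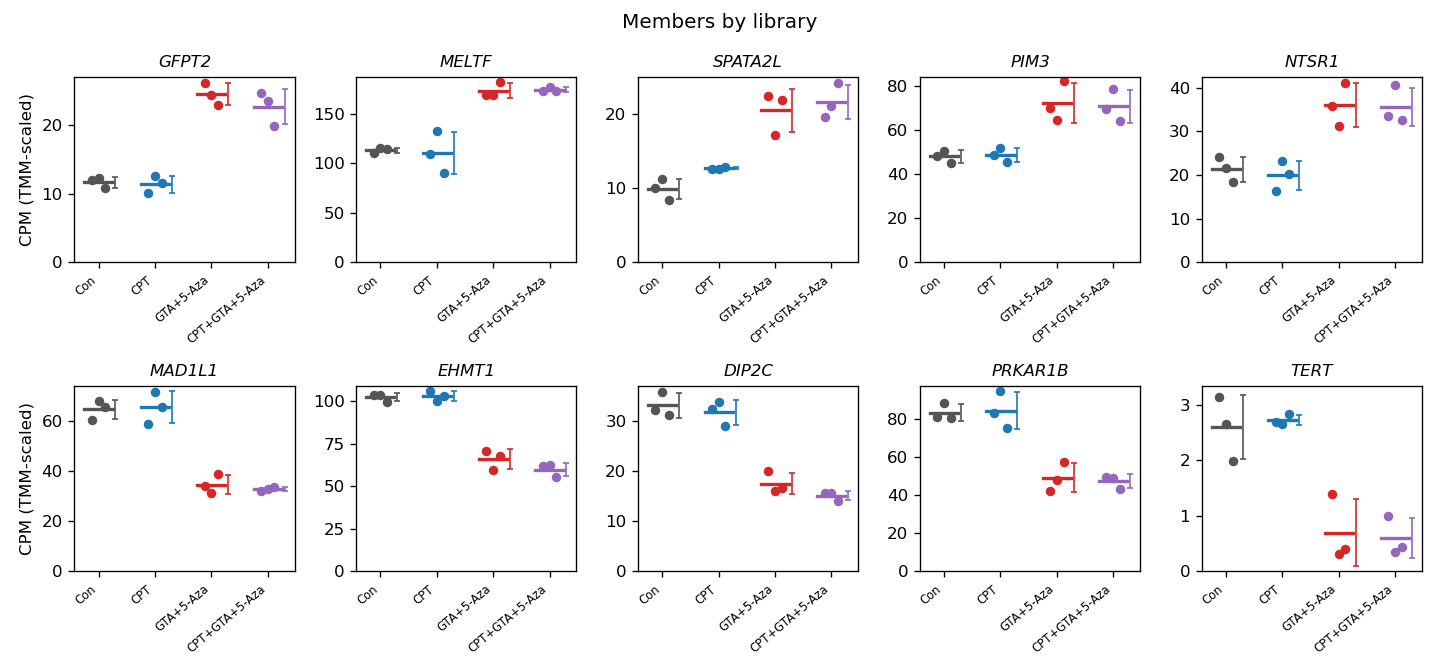
Level in CPM, scaled by TMM, of 10 members in each library of the 4 groups, with points for libraries, a bar for the group mean and a whisker for 1 SD (n = 3). GFPT2, MELTF, SPATA2L, PIM3 and NTSR1 stand higher in all 6 primed libraries, and MAD1L1, EHMT1, DIP2C, PRKAR1B and TERT stand lower in them, with no overlap for any of the 10.

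Of these 10 leading downregulated members, 8 spanned more than 100 kb, and the response of members was therefore set against their span. The split at 100 kb was not planned. The 8 genes are counted again among the long members below, so those counts are not independent of them. Without CPT, member medians of the log2 fold change descended with each span class. It was 0.17 under 5 kb (125 members), 0.09 from 5 to 10 kb (144), 0.07 from 10 to 20 kb (205), -0.01 from 20 to 50 kb (239), -0.08 from 50 to 100 kb (126), -0.17 from 100 to 200 kb (52) and -0.45 over 200 kb (19). The other autosomal protein-coding genes descended over a narrower range, from 0.11 under 5 kb to -0.06 from 100 to 200 kb and -0.12 over 200 kb. With CPT the same 7 classes of members ran from 0.14 to -0.44 and those of other genes from 0.13 to -0.11. The upper end of the gradient leaned on GC: with the GC trend removed, members under 5 kb, whose median exonic GC was 65.1%, stood at -0.03 and -0.04 in the 2 comparisons, while those over 200 kb stood at -0.43 and -0.44.

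**Figure D2:**
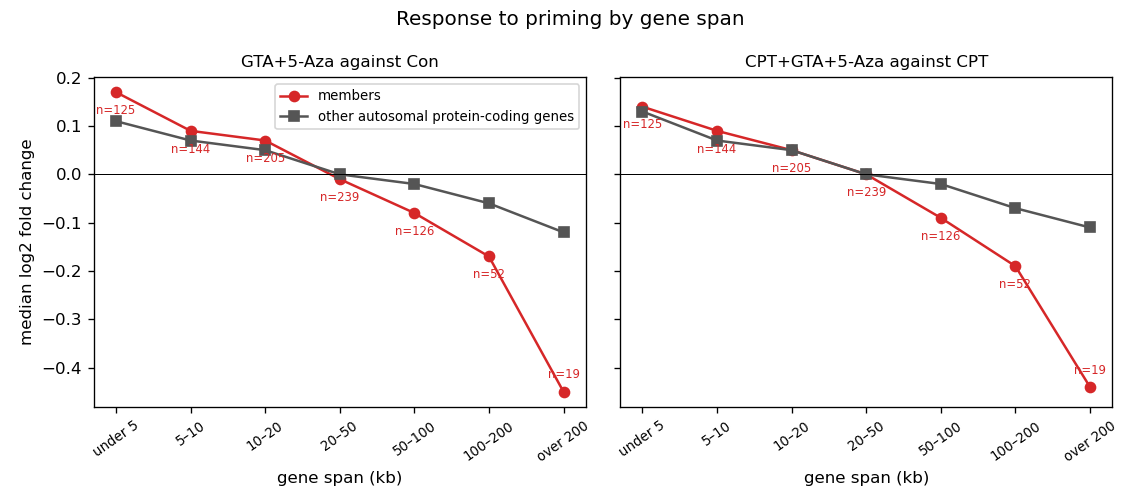
Median log2 fold change of tested members (circles, with their number) and of the other tested autosomal protein-coding genes (squares) by gene span in kb, for priming without CPT on the left and with CPT on the right. Both lines descend with span, and members over 200 kb stand at -0.45 and -0.44 where the other genes of that span stand at -0.12 and -0.11.

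Among the 71 tested members over 100 kb, 28 were downregulated in GTA+5-Aza against Con, or 39.4%, where 358 of 2140 other autosomal protein-coding genes over 100 kb were, or 16.7%. Only 3 of the 71 were upregulated, namely B4GALNT3, the kinesin KIF1A and the collagen gene COL18A1. With CPT 27 were downregulated, or 38.0%, against 16.4% of the other long genes. Their medians were -0.23 and -0.26, against -0.08 and -0.08 for the other long genes, whose median level was close (4.91 against 5.12 log2 CPM for members). Long members were lower within GC classes too. In the lower 4 of 6 GC classes 17 of 32 long members were downregulated without CPT, or 53.1%, against 17.0% of 1919 other long genes, and in the top 2 classes 11 of 39, or 28.2%, against 14.0% of 221. Level was not matched within these classes. The median log2 CPM was 5.69 for members against 4.95 in the lower classes and 4.25 against 4.71 in the top 2. The median of long members was negative under each scaling and normalization tried, between -0.315 (GC trend removed) and -0.189 (library size alone) without CPT, and without each chromosome in turn it stayed between -0.287 and -0.212. By contrast, of 474 members of 20 kb or less, 15 were downregulated without CPT, or 3.16%, and 63 upregulated, or 13.3%, against 5.48% and 15.3% of other short genes. No test of the difference between members and other genes was made.

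Each library can be placed by the median deviation of the long members from their 12-library mean on the log2 CPM scale. It was 0.118, 0.145 and 0.095 in Con, 0.077, 0.150 and 0.129 in CPT, -0.132, -0.101 and -0.079 in GTA+5-Aza, and -0.126, -0.133 and -0.093 in CPT+GTA+5-Aza. All unprimed libraries were thus above all primed ones. Members of 20 kb or less did not separate the groups in this way, since their deviations ran from -0.138 to 0.109 in unprimed libraries and from -0.040 to 0.152 in primed ones. For other genes over 100 kb they ran from -0.025 to 0.092 and from -0.063 to 0.002.

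**Figure D3:**
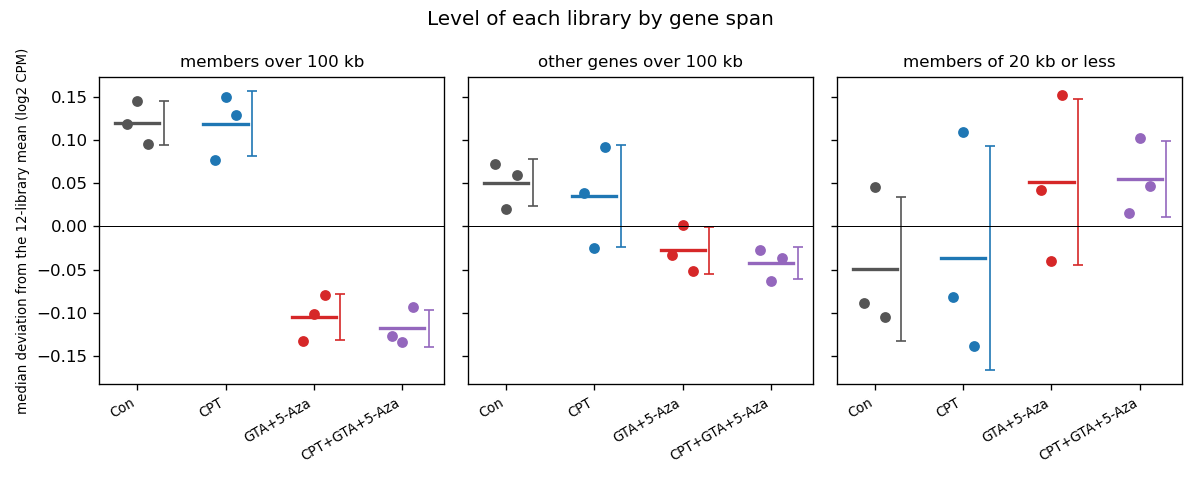
Median deviation of each library from the 12-library mean of log2 CPM, for members over 100 kb, other autosomal protein-coding genes over 100 kb and members of 20 kb or less, with points for libraries, a bar for the group mean and a whisker for 1 SD (n = 3). Unprimed and primed libraries separate fully only in the first panel.

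Of the 19 members over 200 kb, 17 had a negative log2 fold change in both priming comparisons. Of 775 other autosomal protein-coding genes of that span, 497 had one without CPT and 499 with CPT. Among the 19, 13 were downregulated without CPT and 11 with CPT, and none was upregulated. These are 68.4% and 57.9%, against 19.9% and 18.8% of the other genes over 200 kb and 7.53% and 7.39% of all tested genes. Level was not matched, with a median log2 CPM of 4.88 for members against 4.21 for the other genes over 200 kb. Among other autosomal protein-coding genes of any span, the share downregulated without CPT was 0.622% under 2 log2 CPM and 29.5% over 8. The part of level in this contrast was not tested. Beside MAD1L1, INPP5A, EHMT1, DIP2C, PCSK6 and PTPRN2 the downregulated members included VPS53, a subunit of a complex that tethers vesicles returning to the Golgi, at -0.45 ± 0.08 (edgeR adjusted p = 0.000264), and ANKRD11, a chromatin regulator, at -0.29 ± 0.06 (edgeR adjusted p = 0.00161). Named after their values were seen, the 2 exceptions with a positive value without CPT were MCF2L, a guanine nucleotide exchange factor, at 0.69 (edgeR adjusted p = 0.37), and SMARCA2, an ATPase of chromatin remodelling complexes, at 0.70 (edgeR adjusted p = 0.0894).

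Distance from the end was then taken over all autosomal protein-coding genes. Within the 2 Mb, members from 0 to 0.5, 0.5 to 1, 1 to 1.5 and 1.5 to 2 Mb had medians of 0.03, 0.02, 0.02 and 0.02 without CPT. With the GC trend removed the sign turned, and the same 4 medians were -0.07, -0.10, -0.11 and -0.11, with -0.11 from 2 to 4 Mb and values between -0.03 and 0.02 in the 5 classes farther in. Of genes over 100 kb, 39.4% were downregulated within 2 Mb (71 genes), 23.8% from 2 to 4 Mb (84 genes), 21.5% from 4 to 10 Mb (172 genes) and 16.0% farther in (1884 genes). Their medians with the GC trend removed were -0.32, -0.18, -0.10 and -0.03. With CPT these shares were 38.0%, 20.2%, 22.1% and 15.7%. For genes of 20 kb or less the shares were 3.16%, 6.48%, 5.34% and 5.44% without CPT, and the medians with the GC trend removed -0.06, -0.08, -0.01 and 0.03.

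**Figure D4:**
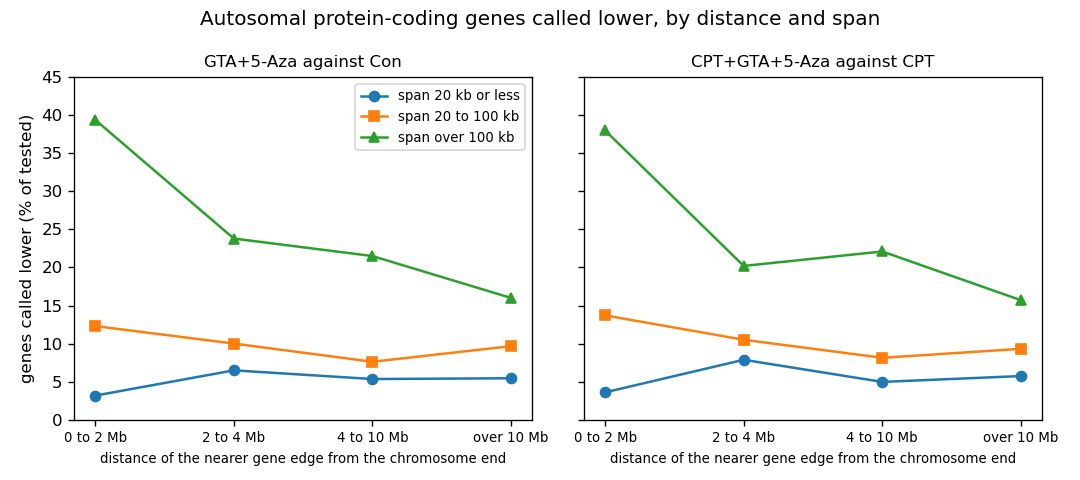
Percent of tested autosomal protein-coding genes downregulated by priming (edgeR adjusted p under 0.05) against the distance of their nearer edge from the chromosome end, in 3 span classes, without CPT on the left and with CPT on the right. The long genes within 2 Mb, at 39.4% and 38.0%, stand above the long genes farther in and above both shorter classes.

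Of the 3 tested genes on either side of the 2 Mb limit, 1 was called without CPT. Just inside it, the ribosome-associated ubiquitin ligase ZNF598 was downregulated (-0.27 ± 0.09, edgeR adjusted p = 0.0309). SNAPC4, a subunit of the small nuclear RNA activating complex, had 0.24 ± 0.10 (edgeR adjusted p = 0.111), and TSPEAR, a gene of 213.7 kb, had -0.41 ± 0.37 (edgeR adjusted p = 0.502). Just outside it, PCYT1A, an enzyme of phosphatidylcholine synthesis, had -0.07 ± 0.06 (edgeR adjusted p = 0.496), the neuropeptide gene NPW -1.10 ± 0.55 (edgeR adjusted p = 0.176) and the mitochondrial complex I assembly factor NDUFAF8 -0.24 ± 0.11 (edgeR adjusted p = 0.158).

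The medians of chromosome ends lay on both sides of 0. Of 28 ends with at least 10 tested members, 9 had a median above 0 in both priming comparisons and 13 had one below 0 in both. With the GC trend removed 3 of them, 6q, 19q and 20p, had a median above 0 in both and 23 had one below 0 in both. Counts of called members at an end stand against 9.95% upregulated and 7.53% downregulated among all tested genes. The lowest without CPT was 13q at -0.16, with 8 of 18 tested members downregulated and 0 upregulated, and its median span was 48.7 kb. The highest was 20p at 0.31, with 5 of 16 upregulated and 0 downregulated, and its median span was 28.2 kb. With CPT these medians were -0.05 and 0.25. With the GC trend removed they were -0.22 and 0.15 without CPT, where 7p (-0.28) and 10q (-0.27) stood below 13q, and the 20p median was 0.236 without the filter on low counts. The 13q median varied with the library left out, from -0.202 to -0.112 without CPT. Gene-dense ends of short genes differed. The ends 16p (72 tested, 0.04), 11p (49 tested, -0.01) and 17q (49 tested, -0.01) lay near 0. They stood at -0.10, -0.17 and -0.15 with the GC trend removed. Higher medians were found at 8q (64 tested, 0.10), 9q (52 tested, 0.09) and 19p (61 tested, 0.06), which stood at -0.09, -0.09 and -0.11 with the GC trend removed. At 10p, where the 7 tested members had a median span of 111 kb, 4 were downregulated in each comparison and the medians were -0.29 and -0.23 (-0.27 and -0.22 with the GC trend removed). At 19q, where zinc finger genes lie, the 57 tested members had medians of 0.15 and 0.17 (0.11 and 0.15 with the GC trend removed), with 5 upregulated and 0 downregulated without CPT.

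**Figure D5:**
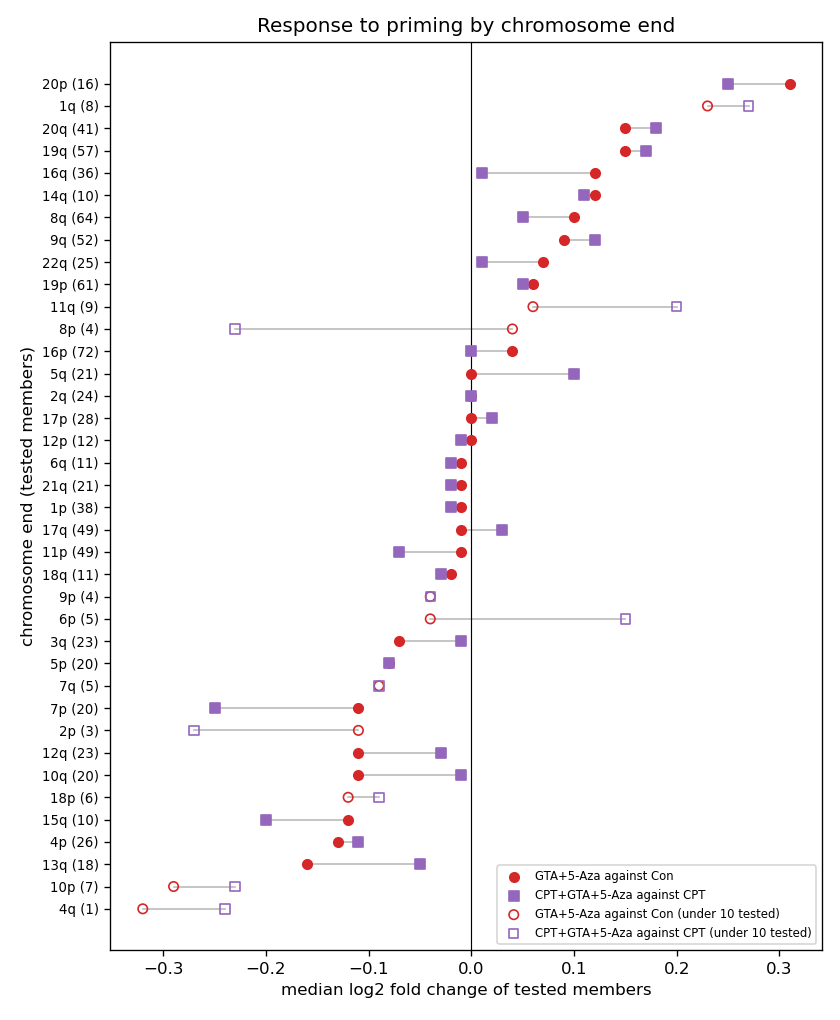
Median log2 fold change of tested members at each of 38 chromosome ends, for GTA+5-Aza against Con (circles) and CPT+GTA+5-Aza against CPT (squares), ordered by the former, with the number of tested members in parentheses and open symbols for ends with under 10. The end 20p stands highest among ends with at least 10, at 0.31 and 0.25, and 13q lowest in the first comparison, at -0.16.

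At 13q the members with the smallest p were CUL4A, a scaffold of ubiquitin ligases, the phospholipid flippase ATP11A and RASA3, a GTPase-activating protein. CUL4A stood at 145, 143 and 144 CPM in Con and 114, 121 and 120 CPM in GTA+5-Aza, with 143, 144 and 145 CPM in CPT and 124, 120 and 122 CPM in CPT+GTA+5-Aza. The spread within each group was small against the gap, and the log2 fold changes were -0.28 ± 0.06 (edgeR adjusted p = 0.00144) and -0.24 ± 0.06 (edgeR adjusted p = 0.00555). ATP11A changed by -0.43 ± 0.09 and RASA3 by -0.57 ± 0.13 without CPT (edgeR adjusted p = 0.00143 and 0.0022). At 20p, SNPH, a syntaphilin that anchors mitochondria in axons, rose from 0.631, 1.38 and 0.924 CPM in Con to 3.21, 2.55 and 4.86 CPM in GTA+5-Aza (1.84 ± 0.38, edgeR adjusted p = 0.00109). SIRPA, the inhibitory receptor for CD47, changed by 0.51 ± 0.13 (edgeR adjusted p = 0.00909) and C20orf96, the outermost tested member there, by 0.50 ± 0.16 (edgeR adjusted p = 0.0279). Without Con replicate 1 the call of SIRPA was lost, and that of C20orf96 was lost without Con replicate 3 or GTA+5-Aza replicate 2 or 3.

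Of the outermost tested members, one for each of 38 ends, only those called in a priming comparison are named. These moved in both directions, and the rest were called in neither comparison. Among all tested genes 17.5% were called without CPT and 17.0% with CPT. ZMYND11, a reader of methylated histone and the outermost at 10p (130 kb), changed by -0.42 ± 0.08 (edgeR adjusted p = 0.000482), and the deubiquitinase USP14, the outermost at 18p (158 kb), by -0.27 ± 0.06 (edgeR adjusted p = 0.00373). PLPP2, a lipid phosphate phosphatase and the outermost at 19p (281 kb), rose from 27.1, 31.9 and 32 CPM in Con to 43.6, 43.4 and 49.5 CPM in GTA+5-Aza, by 0.58 ± 0.10 (edgeR adjusted p = 0.000136). PDCD2, the outermost at 6q (221 kb), stood at 101, 97.3 and 101 CPM in Con and 82.3, 80.9 and 78.4 CPM in GTA+5-Aza (-0.31 ± 0.07, edgeR adjusted p = 0.00445). FAM20C, a kinase of secreted proteins and the outermost at 7p (193 kb), stood at 18.0, 23.5 and 18.3 CPM in Con and 14.3, 11.6 and 15.5 CPM in GTA+5-Aza (-0.54 ± 0.15, edgeR adjusted p = 0.0145), without overlap. TMEM121, the outermost at 14q, changed by 0.73 ± 0.21 (edgeR adjusted p = 0.0138), but GTA+5-Aza replicate 2 overlapped Con. C8orf33, the outermost at 8q (72 kb), and GAS8, a ciliary dynein regulator at 16q (293 kb), were called without CPT alone (-0.29 ± 0.08 and 0.37 ± 0.12), and LMLN, a metallopeptidase at 3q (252 kb), and TARS3, a threonyl-tRNA synthetase at 15q (267 kb), with CPT alone (-0.41 ± 0.12 and -0.46 ± 0.16). Whether these 4 differed between the comparisons was not called by the interaction test. METRNL, a secreted protein 162 kb from the end of 17q, stood at 8.36, 7.58 and 5.93 CPM in Con and at 15.4, 8.21 and 13.5 CPM in GTA+5-Aza, where GTA+5-Aza replicate 2 overlapped Con. Its call (0.76 ± 0.20, edgeR adjusted p = 0.00961) was lost on leaving out Con replicate 3, or replicate 1 or 3 of GTA+5-Aza. DOC2B, a calcium sensor of exocytosis and the outermost tested member at 17p, had 0 counts in Con and 0.374, 0.851 and 0.903 CPM after GTA+5-Aza. That is at least 4.83-fold higher, taking 3 counts per library for a count of 0 (edgeR adjusted p = 0.00197). With 0 counts in Con it passed the filter on low counts only through other libraries. This comparison could thus only come out higher, and the p-value is no independent support for a rise. In CPT it stood at 0, 0.0984 and 0.546 CPM and in CPT+GTA+5-Aza at 0.581, 0.681 and 0.980 CPM, without overlap but not past the test (edgeR adjusted p = 0.162).

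The members were also grouped by role, in lists chosen with earlier results of these data known. The counts of these groups are thus descriptive and no independent support. Counts in each group stand against 9.95% upregulated and 7.53% downregulated among all tested genes without CPT, and 9.57% and 7.39% with CPT, and the groups were not tested against each other. After removal of the GC trend the group medians without CPT ran from -0.21 (chromatin regulators) to 0.13 (interferon and immune function), and only that of the latter and of the zinc finger genes (0.01) were above 0. Of 25 tested chromatin regulators 7 were downregulated and 0 upregulated without CPT, and 7 and 1 with CPT, with medians of -0.09 and -0.08 and a median span of 54.6 kb. The downregulated ones included EHMT1, ZMYND11 and ANKRD11. DIP2C, of the disco-interacting family, was also counted in this list as downregulated, although no role of it in chromatin is shown here. Of 29 members of transcription and RNA processing, 5 were downregulated and 1 upregulated, and 7 and 1 with CPT. SSU72, a phosphatase of the RNA polymerase tail at 1p, stood at 174, 180 and 178 CPM in Con and 139, 135 and 142 CPM in GTA+5-Aza, and at 182, 180 and 184 CPM in CPT against 136, 149 and 138 CPM in CPT+GTA+5-Aza. Its log2 fold changes were -0.35 ± 0.06 (edgeR adjusted p = 0.000114) and -0.36 ± 0.06 (edgeR adjusted p = 7.98e-05). The splicing factors HNRNPH1 (-0.32 ± 0.06) and SFSWAP (-0.41 ± 0.09) and the polymerase phosphatase CTDP1 (-0.42 ± 0.09) fell as well.

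Of 29 members of cell cycle and DNA repair, 5 were downregulated and 1 upregulated without CPT, and 4 and 1 with CPT. Beside MAD1L1, TERT and CUL4A, CDT1, which loads the replicative helicase, rose by 0.33 ± 0.07 (edgeR adjusted p = 0.00158), a value that was 0.14 with the GC trend removed. Of 32 members of mitochondrial energy and protein import, 2 were upregulated and 3 downregulated in each comparison, among them the near-identical neighbours ATAD3A and ATAD3B at 1p (-0.33 ± 0.10 and -0.34 ± 0.11), between which reads may be shared, and the nucleoside diphosphate kinase NME3 (0.45 ± 0.14). Of 18 members of the ribosome and translation, 2 rose and 2 fell without CPT, and 2 and 4 with CPT. EEF1A2, a translation elongation factor that resembles EEF1A1 closely enough to share reads, rose from 395, 427 and 404 CPM in Con to 537, 483 and 597 CPM in GTA+5-Aza, by 0.40 ± 0.06 (edgeR adjusted p = 6.21e-05), a value that was 0.19 with the GC trend removed. GTPBP4, a GTPase of ribosome assembly, changed by -0.23 ± 0.06 in each comparison (edgeR adjusted p = 0.00809 and 0.00847). RPL13, a ribosomal protein with processed pseudogenes, changed by 0.21 ± 0.06 with overlapping groups.

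Of 31 members of signalling and development, 5 were upregulated and 4 downregulated without CPT, and 1 and 6 with CPT. The receptor NOTCH1 stood at 124, 135 and 130 CPM in Con and 109, 104 and 110 CPM in GTA+5-Aza (-0.27 ± 0.06, edgeR adjusted p = 0.00373), the WNT pathway scaffold APC2 changed by -0.43 ± 0.10 (edgeR adjusted p = 0.00317), and the transcriptional repressor HES4 by 0.55 ± 0.16 (edgeR adjusted p = 0.0182). The SRC family kinase YES1 changed by -0.19 ± 0.06 (edgeR adjusted p = 0.0283). Of 13 tested members of interferon and immune function, 4 were upregulated in each comparison, and 1 and 0 downregulated. ISG15, a ubiquitin-like protein induced by interferon, stood at 14.8, 17.4 and 17.3 CPM in Con and 24.9, 24.8 and 29.2 CPM in GTA+5-Aza, and at 15.3, 18.2 and 14.5 CPM in CPT against 26.5, 25.6 and 22.7 CPM in CPT+GTA+5-Aza. Its log2 fold changes were 0.67 ± 0.12 (edgeR adjusted p = 0.000321) and 0.63 ± 0.12 (edgeR adjusted p = 0.000699). The antiviral membrane proteins IFITM3 (0.62 ± 0.12) and IFITM2 (0.42 ± 0.13), close copies at 11p, rose too.

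Of 20 tested neuronal and synaptic members, 5 were upregulated and 2 downregulated without CPT, and 3 and 1 with CPT, with ELFN1, SNPH and KIF1A higher and PTPRN2 lower in both. Of 15 members of lysosome and glycan breakdown, 0 and 2 moved without CPT and 2 and 1 with CPT, in the order upregulated and downregulated. In the alpha-globin cluster and its neighbours, 12 members were tested, with 1 upregulated and 1 downregulated without CPT and 0 and 2 with CPT. NPRL3, a subunit of a complex that restrains mTOR signalling and whose introns hold enhancers of the alpha-globin genes, stood at 66.8, 61.8 and 68.4 CPM in Con and 50.4, 51.7 and 55.3 CPM in GTA+5-Aza, without overlap. Its log2 fold changes were -0.32 ± 0.08 (edgeR adjusted p = 0.00385) and -0.29 ± 0.08 with CPT (edgeR adjusted p = 0.00805). Of 75 zinc finger genes 5 were upregulated and 3 downregulated without CPT, and 5 and 2 with CPT. ZNF672, ZNF134 and ZNF274 were higher and ZNF512B lower in both. With 1 of 12 libraries left out in turn, the call of ZNF274 was lost 6 times without CPT and 4 times with CPT. That of ZNF134 was lost 3 and 5 times, that of ZNF672 0 and 1 and that of ZNF512B 0 and 2. Of 4 mucin genes only MUC6 was tested.

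Most tested members overlapped another gene of the annotation, 632 of 910, and their medians were 0.00 and 0.00 against 0.05 and 0.05 for the 278 that overlapped none. Removing the GC trend gave medians of -0.11 and -0.10 against -0.07 and -0.07. Strand use in counting is not given in the sources used here, so reads of overlapping genes cannot be told apart.

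The comparison of CPT with Con addresses the response to the Vitamin D analogue alone, and no member passed it. By edgeR 0 members were called at an adjusted p under 0.05 (all tested genes 0.00%), while DESeq2 called 0. An unadjusted p under 0.05 in edgeR was found for 37 of 910 members and 733 of 17123 tested genes. By the study's rule 1 member was upregulated (all tested genes 0.689%) and 13 were downregulated (all tested genes 1.14%). Values of CPT exceeded or fell below all values of Con for 26 and 25 members, which are 2.86% and 2.75%, against 3.81% and 4.21% of all tested genes. When CPT was added to primed cells (CPT+GTA+5-Aza against GTA+5-Aza), 0 members were called by edgeR and 0 by DESeq2 (all tested genes 0.00%). An unadjusted p under 0.05 in edgeR was found for 22 of 910 members and 464 of 17123 tested genes. The study's rule was met by 2 members upward and 3 downward (all tested genes 0.345% and 0.660%). The member medians were 0.010 and 0.007 in the 2 comparisons.

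The 3 members with the smallest p in each direction of these comparisons are given by their values. ZNF772, a zinc finger gene at 19q, stood at 14.4, 14.9 and 13.9 CPM in Con and 10.8, 10.4 and 10.2 CPM in CPT, with 14.7, 14.8 and 12.6 CPM in GTA+5-Aza and 13.7, 13.1 and 13.2 CPM in CPT+GTA+5-Aza. Con and CPT did not overlap (-0.46 ± 0.13, edgeR adjusted p = 0.935). MUC6, a secreted gel-forming mucin, was at 4.68, 5.05 and 4.52 CPM in Con, 2.53, 3.25 and 1.69 CPM in CPT, 2.62, 2.55 and 2.88 CPM in GTA+5-Aza and 2.91, 3.07 and 1.71 CPM in CPT+GTA+5-Aza. Con alone stood high, with an edgeR adjusted p of 0.0389 for GTA+5-Aza and 0.961 for CPT. EXOSC4, a subunit of the RNA exosome at 8q, was at 26.9, 28.4 and 28.5 CPM in Con and 35.9, 39.4 and 34.2 CPM in CPT (0.38 ± 0.12, edgeR adjusted p = 0.998). DOC2B and CTDP1, whose levels are partly given above, were the other members higher in CPT, and CTDP1 stood at 49.2, 50.1 and 50.6 CPM in Con and 55.6, 59.9 and 59.9 CPM in CPT (0.23 ± 0.08, edgeR adjusted p = 1.0). FNDC10, a fibronectin domain protein, was the other member lower in CPT, at 24.4, 26.8 and 25.6 CPM in Con and 18.4, 16.7 and 21.0 CPM in CPT (-0.46 ± 0.14, edgeR adjusted p = 0.961). LRRC56 had the smallest p in primed cells, at 1.5, 0.902 and 1.75 CPM in GTA+5-Aza and 0.634, 0.114 and 0.122 CPM in CPT+GTA+5-Aza (-2.19 ± 0.61, edgeR adjusted p = 1.0). In addition the GTPase-activating protein ARHGAP45 stood at 15.9, 17.4 and 17.6 CPM in GTA+5-Aza and 19.5, 23.8 and 23 CPM in CPT+GTA+5-Aza (0.38 ± 0.13), and the desmosomal plakophilin PKP3 at 45.8, 44.5 and 50.6 CPM against 34.9, 40.3 and 39.7 CPM (-0.29 ± 0.10), both with an edgeR adjusted p of 1.0. DPYSL4 stood at 0.374, 0.301 and 0.169 CPM in GTA+5-Aza and 0.634, 0.908 and 1.65 CPM in CPT+GTA+5-Aza (1.88 ± 0.65), IQCG at 4.59, 4.56 and 5.87 CPM in GTA+5-Aza and 6.92, 6.81 and 7.59 CPM in CPT+GTA+5-Aza (0.51 ± 0.19), and ZNF469 at 8.82, 7.71 and 10.6 CPM in GTA+5-Aza and 7.45, 5.28 and 5.69 CPM in CPT+GTA+5-Aza (-0.55 ± 0.19), each with an edgeR adjusted p of 1.0. The groups did not overlap in any of these 6 genes, but the adjusted test across all genes did not separate them.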

How the data were processed

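RNA-seq was done on 12 MiaPaca2 libraries with 150 bp paired reads. After trimming with Trim Galore and alignment to GRCh38 by HISAT2 2.2.1, the authors deposited raw HTSeq counts per Ensembl gene. The strand setting and annotation release are not given in the sources used here. The deposited counts of 63677 identifiers were tested in R 4.3.3 with edgeR 4.0.16 (TMM, filterByExpr, 17123 genes, 1 quasi-likelihood fit of the 4 groups) and Benjamini-Hochberg adjustment. DESeq2 1.42.0 was an alternative. Fold changes are log2 with their SE, and levels are CPM scaled by TMM. Groups and replicates follow the labels, and p-values measure the spread between 3 samples of 1 cell line. Positions, spans and exonic GC came from GENCODE v44 on GRCh38. Statistical code was tested on simulated counts. Replicates of a group differed beyond sampling noise, so that none was counted as a copy.

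The members and gene lists were chosen with earlier results of these data known, and the lists count members only. Genes named in the text are, by rule, the 10 upregulated and 10 downregulated members with the smallest p among those with adjusted p under 0.05, fold change above 1.5 and no overlap in GTA+5-Aza against Con; outermost members called in a priming comparison; up to 4 members per list called in both; the 3 highest and 3 lowest by p in each CPT comparison; the 3 genes on either side of the limit; and the 3 with the smallest p at the highest and lowest end. COL18A1, MCF2L and SMARCA2 were named after their values were seen.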

Additional observations from a re-analysis of the deposited data

How the results depend on the processing

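With each of the 12 libraries left out in turn, the members called ranged from 116 (without Con replicate 3) to 234 without CPT and from 113 (without CPT+GTA+5-Aza replicate 2) to 243 with CPT, against 186 and 181, and the member medians from -0.020 to 0.068 and from -0.031 to 0.065. Member medians near 0 therefore carry no sign. The median of members over 100 kb ranged from -0.256 to -0.227 and from -0.264 to -0.183, and their downregulated count from 22 to 32 and from 20 to 28. No member was called for CPT or the interaction under any alternative. Testing against a fold change of 1.5 left 7 and 8 members, of which 2 and 3 were downregulated members over 100 kb. Shares of all tested genes called are not given here for the leave-one-out fits or for this test. Their counts therefore show only how member calls depend on the setting. Members within 1 Mb, a smaller set, gave 104 calls in each priming comparison. Without CPT 11.7% of the 205 members within 0.5 Mb were upregulated and 10.2% downregulated. Of the 273 from 0.5 to 1 Mb these shares were 11.4% and 10.3%, near the 10.8% and 9.67% of all tested members. With the GC trend removed the member medians were -0.097 and -0.093 and the medians of members over 100 kb -0.315 and -0.305. The calls with CPT were then 279, and the share of all tested genes called under this setting is not given here. These latter medians were -0.189 and -0.219 with library size alone, -0.192 without the filter (without CPT), and -0.287 and -0.298 without chromosome 12. The cause of these shifts was not tested.

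Replicate numbers did not pair the samples, since same-numbered libraries correlated between -0.524 and 0.564 in their deviations. With the number as a replicate block, 185 and 175 members were called, again without shares of all tested genes. Of the named members called in each priming comparison, 45 of 66 and 37 of 63 kept their call in every leave-one-out. The remaining 21 and 26 lost it without at least 1 library, with no change of sign. The most losses of 1 gene were 6 of 12 without CPT (ZNF274 and MUC6) and 7 of 12 with CPT (PDCD2).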
